A study of Mus musculus with 63 samples.

Results

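Whole mouse embryos at E13.5 (midgestation, counted in embryonic days) that carried 1 deleted allele of the long noncoding RNA *Chaserr* (*Chaserr*+/-, labelled Het) were compared with wild-type (WT) embryos of the same age. The comparison used 6 of the 63 samples of the series, chosen by their titles, with 3 WT libraries (WT 1 to WT 3) and 3 *Chaserr*+/- libraries (Het 1 to Het 3). The series also holds E9.5 embryos, brains, embryonic fibroblasts and chromatin experiments on the same locus. Guide RNAs had been injected into fertilized CB6F1 Ola HSD oocytes, the mice were backcrossed to C57BL/6 Ola HSD, and both founder lines that resulted were used without distinction. The deletion removes the promoter and first exon in every cell of the embryo and is not restricted to a tissue. Which founder line, backcross generation or litter gave each embryo is not given in the sources used here, and neither is it stated that the libraries came from separate animals, so p-values measure the spread between these libraries. Poly(A) RNA was sequenced with the TruSeq stranded kit in all 6 libraries.

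*Chaserr* is transcribed from a promoter upstream of *Chd2* and on the same strand, so that the pair lies in tandem. *Chd2* encodes a chromatin remodeller of the CHD family, proteins that use ATP to move nucleosomes. Reports that the paper cites conflict on where CHD2 binds, placing it near promoters or in the bodies of active genes. It has also been linked to deposition of the histone variant H3.3. At E13.5 most organs have formed, and the liver is the main site where red cells are made. RNA from a whole embryo therefore mixes liver, blood, muscle, skeleton, skin, brain and other organs.

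The allele was made with 4 guides, a pair before the *Chaserr* start and a pair in its first intron, and their target sites are shown because they define the mutation. Each 20-base guide matched a single place on chromosome 7 (mm9), and the capitals mark the adjacent NGG motif that Cas9 needs.
sgRNA 1: cggtccgagccagcggggagAGG
sgRNA 2: gaggtgggaacccatctttgGGG
sgRNA 3: agtgaaactctgggtttgcgGGG
sgRNA 4: tgctgagaacatggaagcggTGG

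The guide of sgRNA 1 lies at chr7:80702699-80702718 and that of sgRNA 2 at chr7:80702568-80702587, both on the minus strand. The site of sgRNA 3 is at chr7:80703696-80703715 on the plus strand, and that of sgRNA 4 is at chr7:80703600-80703619 on the minus strand. All 4 sites are upstream of the annotated 5′ end of *Chd2* (chr7:80571577-80686632, minus strand), at 15.9 to 17.1 kb. If Cas9 cuts 3 bases from the motif, the outermost cuts are 1142 bases apart. The window from 250 bases before to 50 bases after the *Chaserr* start, as RefSeq gives it for GRCm38.p6, matched chr7:80703232-80703531 in mm9 and lay wholly between the sites of the pair on either side, so that a deletion between them removes it. Its sequence is given 5′ to 3′ on the minus strand, with the first 50 transcribed bases in capitals.
*Chaserr* promoter: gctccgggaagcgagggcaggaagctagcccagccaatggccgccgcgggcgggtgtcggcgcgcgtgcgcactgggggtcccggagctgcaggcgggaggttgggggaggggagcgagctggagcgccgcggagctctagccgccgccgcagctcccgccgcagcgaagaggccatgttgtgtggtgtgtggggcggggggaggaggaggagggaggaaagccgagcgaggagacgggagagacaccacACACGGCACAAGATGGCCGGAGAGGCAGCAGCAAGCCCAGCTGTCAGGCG

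The window had a GC content of 72.3% and 30 CG dinucleotides.

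The authors' expected counts summed to between 24875718 and 29806424 per library. They were divided by TMM-scaled library sizes (CPM) for display and tested with edgeR's quasi-likelihood test, and a gene was called at a Benjamini-Hochberg adjusted p under 0.05. Of 15946 genes tested, 5 were called (0.0314%), of which 2 were higher (0.0125%) and 3 lower (0.0188%) in *Chaserr*+/- embryos. An unadjusted p under 0.05 was found for 1011 genes (6.34%), 492 higher (3.09%) and 519 lower (3.25%). All 3 libraries of one group lay above all 3 of the other for 916 genes higher (5.74%) and 1127 genes lower (7.07%) in *Chaserr*+/-. The median log2 fold change over all genes tested was 0.0036. DESeq2 called 23 of 20043 genes (0.115%), among them all 5.

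*Chaserr*, the targeted gene, was lower in all 3 *Chaserr*+/- libraries. It was at 16.4, 25.4 and 22.2 CPM in WT 1 to 3 and at 14.2, 11.4 and 16.4 CPM in Het 1 to 3. The groups did not overlap, but the lowest WT library and the highest *Chaserr*+/- library were close. The means were 21.3 ± 4.54 CPM (SD, n = 3) in WT and 14.0 ± 2.47 CPM (SD, n = 3) in *Chaserr*+/-. The log2 fold change was -0.61 (SE 0.187) and did not pass (edgeR adjusted p = 0.732). The exact two-sided permutation test over the 6 libraries gave p = 0.1, the smallest value that 3 libraries against 3 allow.

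*Chd2*, the neighbour downstream, rose by 1.72-fold. Its values were 129, 127 and 125 CPM in WT 1 to 3, and 209, 222 and 225 CPM in Het 1 to 3. Every *Chaserr*+/- library stood far above every WT library, and both groups were tight. The means were 127 ± 1.88 CPM (SD, n = 3) and 219 ± 8.80 CPM (SD, n = 3). The log2 fold change was 0.78 (SE 0.0443, edgeR adjusted p = 0.0029). This adjusted p was 0.0536 without WT replicate 3. Per length, *Chd2* went from 26.0 ± 0.453 TPM (SD, n = 3) to 43.2 ± 5.26 TPM (SD, n = 3) and *Chaserr* from 54.6 ± 11.4 TPM (SD, n = 3) to 34.7 ± 6.87 TPM (SD, n = 3), so that the order of both levels differed between the groups.

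Of the genes tested within 2 Mb of *Chd2*, none of *A730056A06Rik*, *Sv2b*, *Fam174b*, *Mctp2*, *Slco3a1*, *Rgma* and *St8sia2* was called. *Rgma*, which encodes a guidance cue that acts as a BMP co-receptor and which lies beyond the 3′ end of *Chd2*, was at 120, 98.8 and 99.6 CPM in WT 1 to 3 and at 96.6, 111 and 105 CPM in Het 1 to 3 (log2 fold change -0.03). The neighbour with the lowest unadjusted p, *A730056A06Rik*, was at 4.99, 4.76 and 5.00 CPM in WT and at 5.57, 5.57 and 5.94 CPM in *Chaserr*+/- (log2 fold change 0.21, edgeR adjusted p = 0.732). Of the other CHD remodellers, 9 were tested and none was called. *Chd1*, the closest relative of *Chd2*, had a log2 fold change of 0.07, *Chd7* 0.11, *Chd3* -0.09 and *Chd8* -0.05. The groups of each of these 4 genes overlapped.

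The other gene that rose was *AI506816*, a little studied gene on chromosome 5. It had 22, 31 and 29 counts in WT 1 to 3 and 776, 774 and 712 counts in Het 1 to 3. The groups were separated by a wide gap, and within each of them the libraries were alike. In CPM, the means were 1.05 ± 0.159 (SD, n = 3) and 27.1 ± 0.854 (SD, n = 3). The log2 fold change was 4.68 (SE 0.12, edgeR adjusted p = 2.15e-05). The row joins 2 transcripts, and the authors' files give for each library the mean transcript length weighted by abundance. That length was 539, 490 and 492 bases in WT 1 to 3 and 2087, 2136 and 2075 bases in Het 1 to 3. The WT reads were thus assigned to a short transcript, and those of *Chaserr*+/- embryos mostly to a longer one. Because TPM is divided by this length, the difference per length was smaller, with 5.65 ± 1.24 TPM (SD, n = 3) in WT and 24.5 ± 2.13 TPM (SD, n = 3) in *Chaserr*+/-. In the order of genes in GRCm38.p6, its nearest tested neighbours are *Srpk2* (log2 fold change -0.05) and *Pus7* (0.18), neither of which was called.

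Among the genes that fell was *Entpd4*, which encodes a nucleoside diphosphatase of the Golgi and lysosome and lies at chr14:69955208-69985327. It was at 78.4, 67.1 and 69.1 CPM in WT 1 to 3 and at 42.8, 43.2 and 44.1 CPM in Het 1 to 3 (log2 fold change -0.72, SE 0.068, edgeR adjusted p = 0.0412). *Wdfy1*, an endosomal adaptor of Toll-like receptor signalling at chr1:79698837-79772718, was at 77.5, 75.6 and 73.8 CPM in WT and at 50.4, 53.6 and 53.4 CPM in *Chaserr*+/- (log2 fold change -0.53, SE 0.048, edgeR adjusted p = 0.0412). The groups of both genes were far apart, with little spread inside a group. A row listed only by a transcript accession, NM_001100415**, had 189, 502 and 226 counts in WT 1 to 3 and 0, 3 and 0 counts in Het 1 to 3 (edgeR adjusted p = 0.0412). Its counts are uncertain, since in E9.5 embryos the same row had 0, 390 and 0 counts in WT and 0, 0 and 163 counts in *Chaserr*+/-. The calls of *Wdfy1* and of NM_001100415** were lost whichever single library was left out, with edgeR adjusted p-values of up to 0.304 (without WT replicate 3) and 0.265 (without Het replicate 2). That of *Entpd4* held only without WT replicate 1 (edgeR adjusted p = 0.0332) and was lost without each of the other 5 libraries, with values of up to 0.304 (without WT replicate 3).

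**Figure D1:**
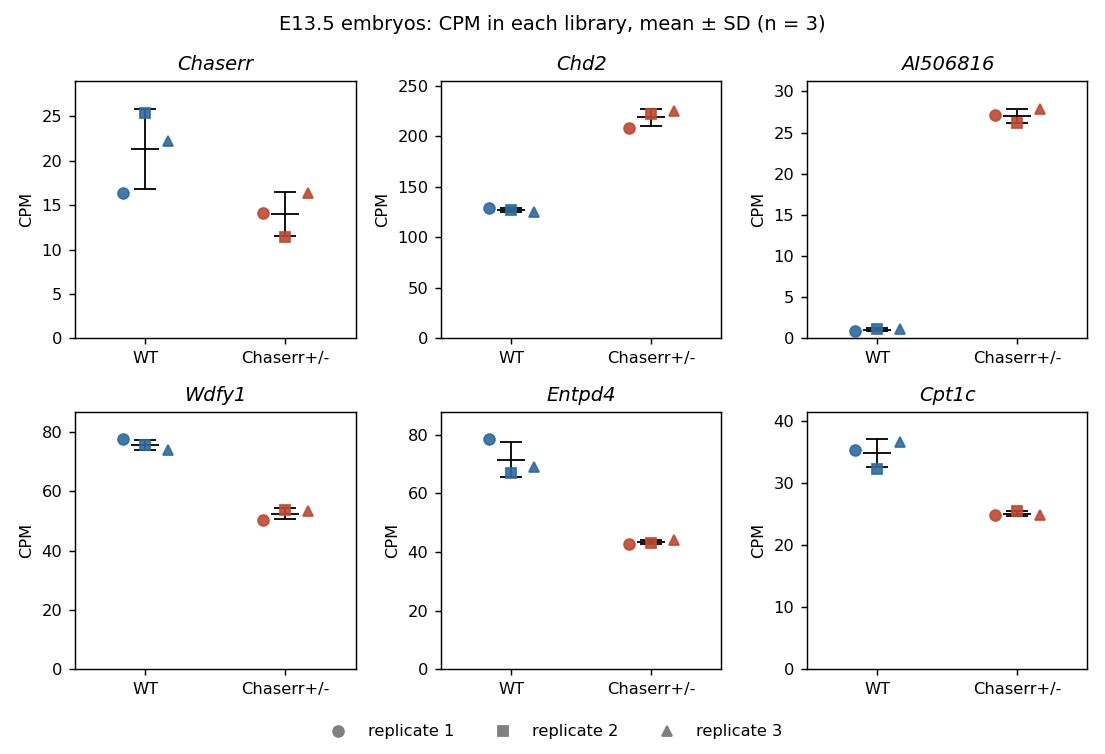
CPM of 6 genes in each E13.5 library (y axes, linear from 0), with WT in blue, *Chaserr*+/- in red, a symbol for each replicate number, and bars for the mean ± SD of 3 libraries. The *Chaserr*+/- libraries sit between 11.4 and 16.4 CPM for *Chaserr* and between 209 and 225 CPM for *Chd2*, while the WT libraries of *Chd2* sit between 125 and 129 CPM.

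Several further genes had groups that did not overlap and were called by DESeq2 but not by edgeR. *Ipw*, an imprinted noncoding RNA of the Prader-Willi region, was at 18.0, 15.2 and 15.0 CPM in WT 1 to 3 and at 5.46, 7.67 and 6.68 CPM in Het 1 to 3 (log2 fold change -1.28, edgeR adjusted p = 0.0891). *Atp10a*, a phospholipid flippase gene on the same chromosome, was at 11.3, 9.94 and 10.6 CPM in WT and at 7.18, 7.67 and 7.04 CPM in *Chaserr*+/- (log2 fold change -0.54, edgeR adjusted p = 0.732), and DESeq2 did not call it. Both were lower in every *Chaserr*+/- library than in any WT library. *Pop1*, a protein subunit of RNase P and RNase MRP, was at 29.2, 31.4 and 31.7 CPM in WT and at 22.2, 21.3 and 20.1 CPM in *Chaserr*+/- (log2 fold change -0.54, edgeR adjusted p = 0.234). *Pop4*, which encodes another subunit of the same enzymes, had a log2 fold change of -0.47. DESeq2 gave adjusted p = 8.85e-05 for *Pop1* and 0.0393 for *Pop4*.

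Chromatin, matrix and ribosome genes were among the others with a low p. *Supt16*, a subunit of the histone chaperone FACT, was higher in *Chaserr*+/- at 253, 238 and 250 CPM against 189, 208 and 206 CPM (log2 fold change 0.30, DESeq2 adjusted p = 0.00114). *Mmp14*, a membrane metalloproteinase that activates MMP2, was lower at 250, 266 and 264 CPM against 301, 306 and 309 CPM (log2 fold change -0.23, DESeq2 adjusted p = 0.00337). *Rpl13a*, a ribosomal protein gene, was lower at 1304, 1237 and 1184 CPM against 1503, 1452 and 1528 CPM (log2 fold change -0.27, DESeq2 adjusted p = 0.00114). None of these 3 genes had overlapping groups, and edgeR gave each an adjusted p of 0.732. *Osgep* (tRNA modification, log2 fold change -0.33), *Lsp1* (a leukocyte actin-binding protein, -0.27), *Myo7a* (an unconventional myosin of hair cells, 0.35), *Aldh1a2* (the retinaldehyde dehydrogenase that makes retinoic acid, -0.33), *Col16a1* (-0.21) and *Rian* (an imprinted noncoding RNA of the Dlk1 region, 0.19) were also called by DESeq2 alone.

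A further list held the genes that the study names, and since that choice was made with the study's data, their direction is not independent evidence. All 13 were tested, 1 was called (*Chd2*), 1 was higher and 5 were lower at an unadjusted p under 0.05, where 3.09% and 3.25% of all genes were, and the median log2 fold change was -0.06. *Cpt1c*, a brain-type carnitine palmitoyltransferase, was at 35.3, 32.3 and 36.6 CPM in WT 1 to 3 and at 24.9, 25.5 and 24.8 CPM in Het 1 to 3 (log2 fold change -0.47, edgeR adjusted p = 0.409, DESeq2 adjusted p = 0.000962). *Ctsk*, the osteoclast collagenase cathepsin K, was at 33.5, 29.7 and 30.4 CPM in WT and at 19.3, 25.7 and 23.02 CPM in *Chaserr*+/- (log2 fold change -0.46, edgeR adjusted p = 0.732). For both genes the groups were apart. *Dapk3* (log2 fold change -0.38) and *Sumf2* (-0.28) also did not overlap between the groups. Their upstream neighbours *Eef2* (0.04) and *Cct6a* (0.10) had small positive values.

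Het 1 stood apart from the other libraries in its liver and blood genes. On the first principal component of log2 CPM, which held 52.1% of the variance, it lay at 52.9, against -24.5 to 15.7 for the others, with WT 2 next. Its median correlation with the other libraries was 0.973, against 0.986 to 0.989. The 10 highest rows took 6.28% of the counts of Het 1 and 3.95% to 4.08% of those of the other 5, and the 100 highest took 17.9% against 15.3% to 15.7%. With globins and erythroid genes left out, the 100 highest took 15.2% in Het 1 and 14.7% to 15.1% in the others. The group means of the share in the 100 highest rows were 15.5% ± 0.174 (SD, n = 3) in WT and 16.2% ± 1.501 (SD, n = 3) in *Chaserr*+/- (exact two-sided permutation p = 0.9), and without Het replicate 1 the difference turned from 0.742 to -0.124 percentage points.

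The rows that gained most in Het 1 were those of adult globins and of secreted liver proteins. *Hbb-bs|Hbb-b1*, adult β-globin, took 1.21% of the counts in Het 1 and 0.254% on average in the other 5. *Afp*, the fetal serum protein α-fetoprotein, was at 204, 584 and 91.3 CPM in WT 1 to 3 and at 2679, 162 and 83.8 CPM in Het 1 to 3. *Alb*, serum albumin, was at 151, 458 and 56.8 CPM in WT and at 2164, 108 and 63.6 CPM in *Chaserr*+/-. For both genes Het 1 was highest and WT 2 second, and the other 4 libraries ran together across the groups. The 12 rows with the largest gain in share, which also held *Slc4a1* (the red cell anion exchanger), *Slc25a37* (the mitochondrial iron importer mitoferrin), *Trf* (transferrin), *Xist* and *Mki67* (a proliferation marker), accounted for 3.49 of the 6.63 percentage points that all gaining rows gained. *Xist* took 0.248% of the counts in Het 1, 0.240% in WT 2 and 0.238% in Het 2, so its high share was not particular to Het 1. *Lars2*, the mitochondrial leucyl-tRNA synthetase, and the neuronal tubulin gene *Tuba1a* were among the rows whose share was lower in Het 1, at 0.0220% against 0.0553% and at 0.352% against 0.421% on average in the others.

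In whole lists the same libraries led. The summed level of 22 fetal hepatocyte genes was 764, 1729 and 391 CPM in WT 1 to 3 and 7213, 616 and 432 CPM in Het 1 to 3. All 22 were highest in Het 1 and 21 were second highest in WT 2. For each gene, Het 1 was divided by the mean of the 4 libraries other than Het 1 and WT 2. The median of these ratios over the 22 genes was 17.5. For 19 erythroid genes other than globins, among them *Klf1*, *Gata1* and *Alas2*, that median ratio was 10.97, and all 19 were highest in Het 1 and second in WT 2. Adult globins summed to 37170 CPM in Het 1 and to between 6174 and 11959 CPM in the other 5. Embryonic globins (*Hba-x*, *Hbb-bh1* and *Hbb-y*), made by the primitive red cells of the yolk sac, summed to 3335 CPM in Het 1 and to between 1908 and 3643 CPM in the others, so that Het 1 was within their range. Endothelial genes (579 to 613 CPM) and macrophage genes (271 to 319 CPM) varied little, while 6 tested granulocyte genes were all highest in Het 1. In RNA of a whole embryo, more cells of a type and more RNA per cell cannot be told apart.

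None of these genes was called between the genotypes. The median log2 fold change of the hepatocyte list was 1.62, of the erythroid list 1.32 and of the globins 0.92, with no member at an unadjusted p under 0.05. Without Het replicate 1 alone the medians turned to -1.21, -0.76 and -0.14, and without both Het replicate 1 and WT replicate 2 they were -0.24, -0.06 and 0.13. The granulocyte list went from 0.13 to -1.26 without both libraries. In that fit 4 of its 6 genes were lower at an unadjusted p under 0.05, against 695 of the 15946 genes tested with all 6 libraries. Leaving out both libraries, a choice made after seeing the data, gave 8 calls among 15953 genes, of which 4 were among the 5. *Xist*, which is expressed from the inactive X chromosome, was at 2382 CPM in WT 2, 2587 CPM in Het 1 and 2368 CPM in Het 2 and at 1.27 CPM or less in the other 3, and the Y-linked gene *Kdm5d* was at 65.3 to 69.5 CPM in those 3 and at 0 in the others. By *Xist* and *Kdm5d*, WT 2, Het 1 and Het 2 were female and the other 3 libraries male. Sex was thus unevenly spread, with 1 female WT and 2 female *Chaserr*+/- libraries. Its part in the results was examined only by adding the *Xist* level as a covariate, which left 3 calls.

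**Figure D2:**
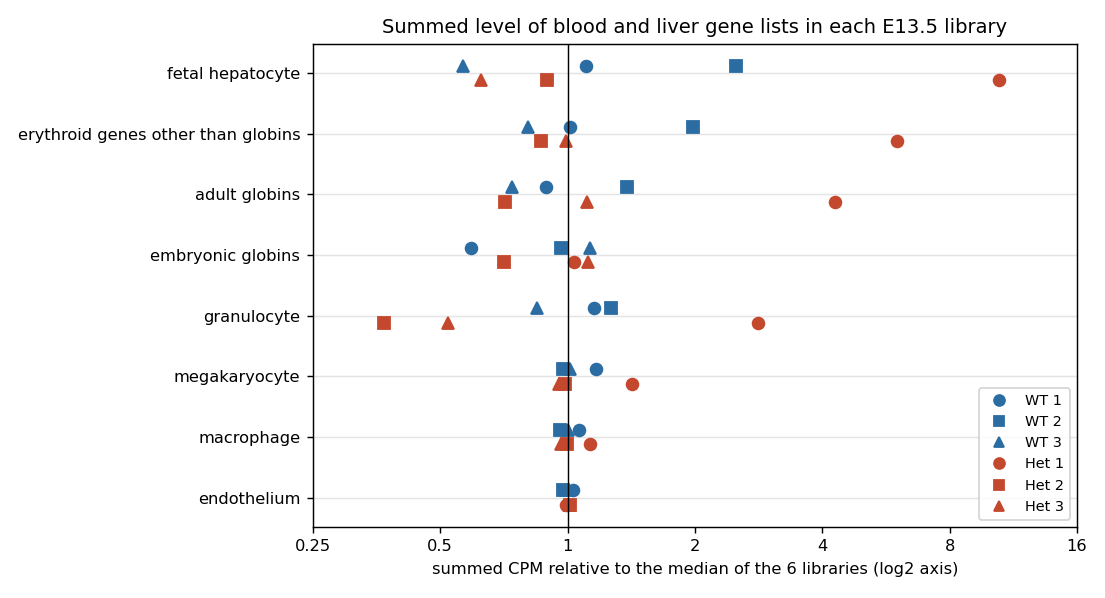
Summed CPM of gene lists in each E13.5 library, relative to the median of the 6 libraries (x axis, log2 scale), with WT in blue, *Chaserr*+/- in red and a symbol for each replicate number. Het 1 lies far to the right for hepatocyte, erythroid and adult globin genes and WT 2 second, whereas Het 1 is inside the range of the others for embryonic globins.

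Over all organ and pathway lists, 60 in number, only *Chd2* was called, and most lists had a median close to that of all genes tested. The lists farthest below it were lens (-1.999), sex-linked genes (-0.73), motor neuron (-0.54), smooth muscle (-0.40), gonad and adrenal steroid genes (-0.27), gut and pancreas (-0.23), BMP and TGF-beta targets (-0.20) and Hox genes (-0.19), among lists with at least 5 genes tested. Those farthest above were the liver and blood lists, megakaryocyte (0.76), melanocyte (0.23) and replication-dependent histones (0.14). The value of the sex-linked list cannot be told apart from the uneven sex of the libraries.

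**Figure D3:**
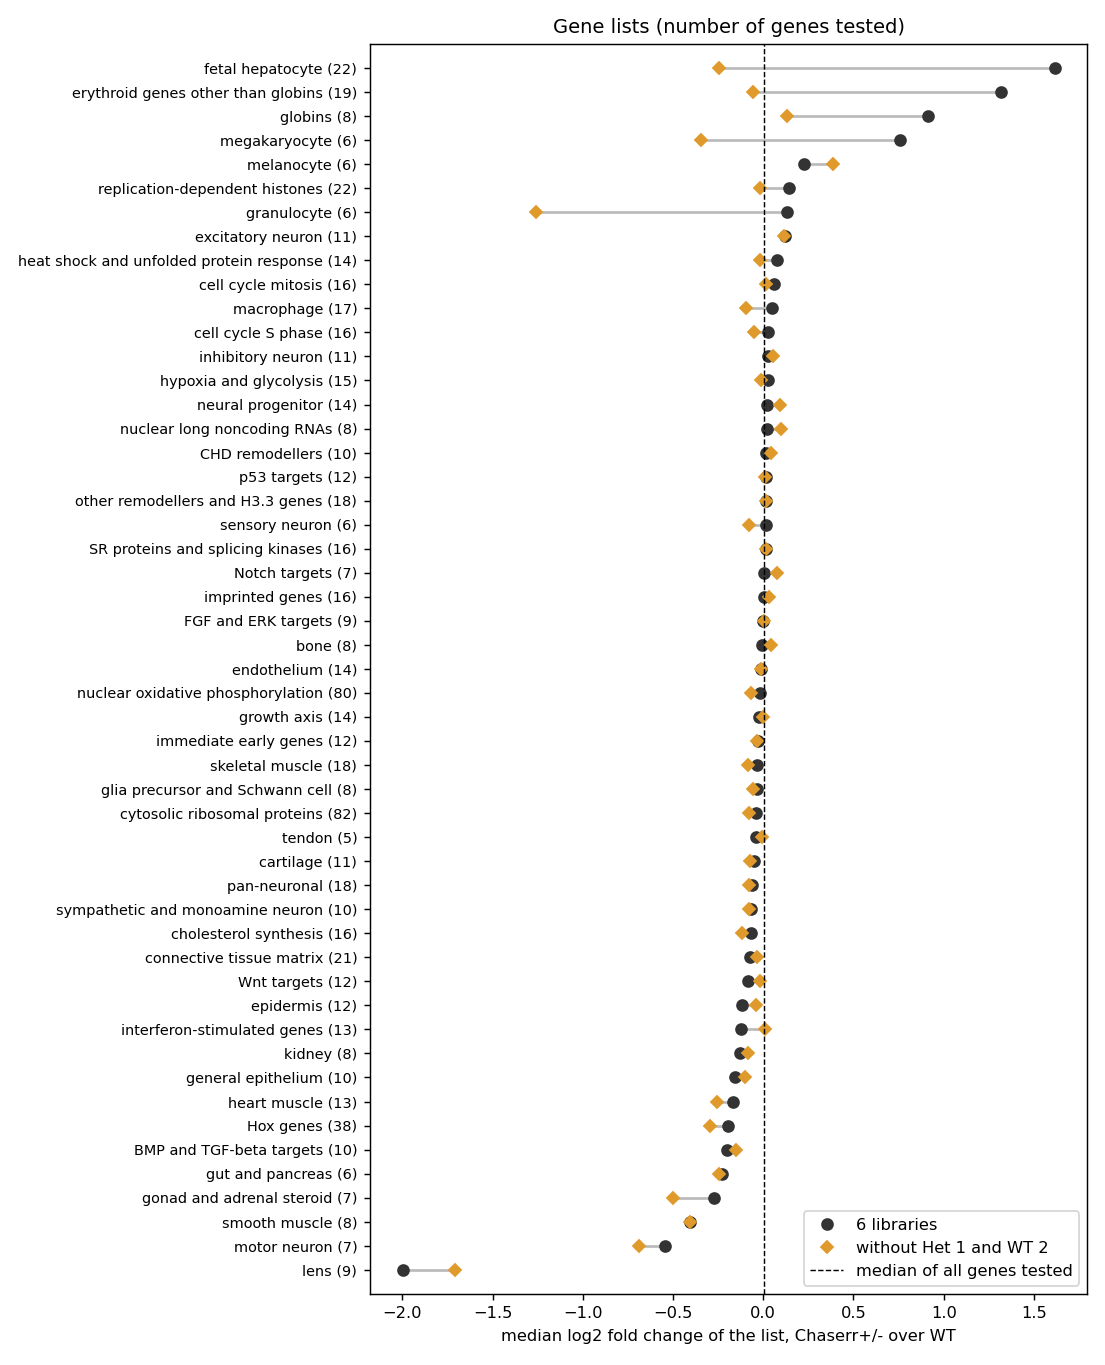
Median log2 fold change of *Chaserr*+/- over WT (x axis) for each organ or pathway list with at least 5 genes tested (sex-linked genes and the genes the study names are not drawn), with all 6 libraries (black circles) and without Het 1 and WT 2 (orange diamonds), and a dashed line at the median of all genes tested. The hepatocyte list moves from 1.62 to -0.24 between the symbols, whereas smooth muscle stays at -0.40 and -0.41.

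The 8 smooth muscle genes tested all had a negative log2 fold change. Of these, 4 had an unadjusted p under 0.05, all lower, where 3.25% of all genes were, and the same number had groups that did not overlap, where 7.07% of all genes were lower in this way. None was called by edgeR. *Tagln* (transgelin, an actin-binding protein of smooth muscle) was at 56.8, 58.1 and 63.8 CPM in WT 1 to 3 and at 46.9, 49.2 and 48.6 CPM in Het 1 to 3 (log2 fold change -0.30, SE 0.0609, edgeR adjusted p = 0.732). *Actg2* (enteric smooth muscle actin) was at 10.98, 17.6 and 18.0 CPM in WT and at 9.74, 8.11 and 6.88 CPM in *Chaserr*+/- (log2 fold change -0.91, DESeq2 adjusted p = 0.038). *Myh11* (smooth muscle myosin heavy chain) was at 14.9, 34.7 and 32.8 CPM in WT and at 14.9, 13.4 and 12.3 CPM in *Chaserr*+/- (log2 fold change -1.02). WT 1 was close to the *Chaserr*+/- libraries for *Actg2* and *Myh11* but not for *Tagln*. *Acta2*, the actin of vascular smooth muscle, had overlapping groups (log2 fold change -0.09).

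Lens genes were high in only 2 libraries, both of them WT. *Cryaa*, the main lens α-crystallin, was at 0, 27.7 and 31.6 CPM in WT 1 to 3 and at 0.841, 0.0338 and 0.195 CPM in Het 1 to 3. *Cryba1* was at 0.159, 12.7 and 14.8 CPM in WT and at 0.42, 0.608 and 0.195 CPM in *Chaserr*+/-. *Crybb1*, *Crybb3*, *Cryba4* and *Mip* (the water channel of lens fibres) had the same order, with WT 2 and WT 3 high and the other 4 low. These 6 genes had an unadjusted p between 0.0084 and 0.03, and the groups of every one overlapped, since WT 1 lay with the *Chaserr*+/- libraries. *Cryab*, a crystallin that muscle also makes, was at 21.2 to 29.7 CPM in all libraries.

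The distal limb and tail genes *Hoxd13* and *Hoxa13* were lowest in Het 2. *Hoxd13* was at 12.7, 29.6 and 21.9 CPM in WT 1 to 3 and at 11.6, 5.61 and 17.3 CPM in Het 1 to 3 (log2 fold change -0.90, edgeR adjusted p = 0.732), and *Hoxa13* was at 1.74, 2.80 and 2.39 CPM in WT and at 1.33, 0.507 and 1.68 CPM in *Chaserr*+/- (-0.98). The groups overlapped for *Hoxd13* and just did not for *Hoxa13*. Of 38 Hox genes tested, 6 were lower and none higher at an unadjusted p under 0.05 (3.25% and 3.09% of all genes), and 33 had a negative log2 fold change. *Hoxd8* (-0.27) and *Hoxc5* (-0.37), which pattern the trunk, had the lowest p among those with an FPKM of at least 1. *Hoxb8* and *Hoxb9* were at 44.5 and 66.5 CPM in WT 1 and at 13.8 and 21.6 CPM in Het 3, with the other libraries between.

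The 10 BMP and TGF-beta targets all had a negative log2 fold change, and none was called. At an unadjusted p under 0.05, 4 were lower (3.25% of all genes were), and 5 were lower with no overlap between the groups (7.07% of all genes). Without Het replicate 1 and WT replicate 2, 1 of the 10 was lower at an unadjusted p under 0.05, against 695 of the 15946 genes tested with all libraries. *Id1*, an inhibitor of bHLH factors induced by BMP signalling, was at 38.6, 45.4 and 43.3 CPM in WT 1 to 3 and at 33.9, 34.8 and 34.7 CPM in Het 1 to 3 (log2 fold change -0.30, edgeR adjusted p = 0.732). *Msx1*, a homeobox gene of limb and face mesenchyme, had a log2 fold change of -0.32, *Bambi*, a decoy receptor, -0.27, and *Id3* -0.12. *Gli1*, a target of Hedgehog signalling, was at 50.8, 51.7 and 57.1 CPM in WT and at 45.7, 47.2 and 42.5 CPM in *Chaserr*+/- (log2 fold change -0.24). The FGF target *Etv4* (-0.29) also had groups that did not overlap. The Notch targets (median 0.01) and Wnt targets (median -0.08) had no member at an unadjusted p under 0.05.

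**Figure D4:**
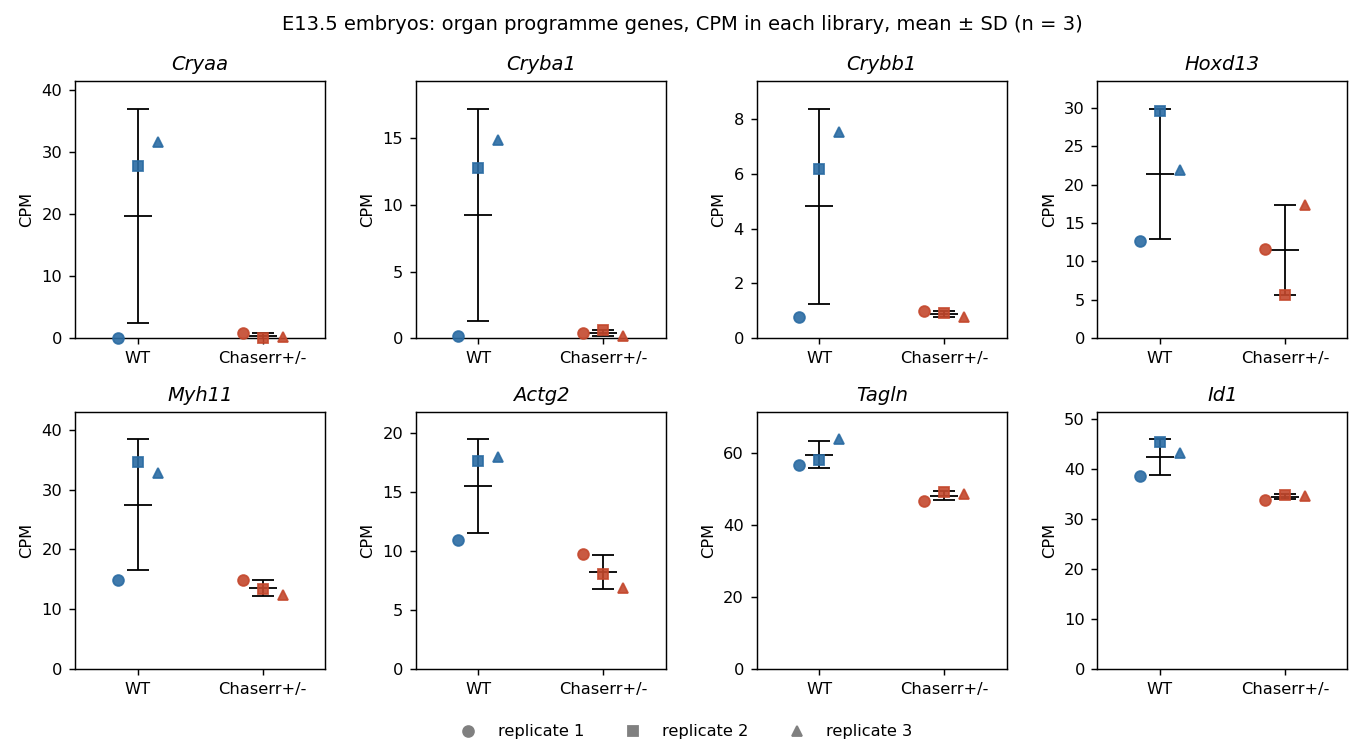
CPM of 8 organ programme genes in each E13.5 library (y axes, linear from 0), with WT in blue, *Chaserr*+/- in red, a symbol for each replicate number, and bars for the mean ± SD of 3 libraries. The crystallin genes are high only in WT 2 and WT 3, while *Tagln* and *Id1* are lower in each *Chaserr*+/- library than in any WT library.

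Nervous system lists had medians on both sides of that of all genes tested. Of 14 neural progenitor genes, 11 had a positive log2 fold change (median 0.02), and *Sox2*, a factor of neural stem cells, was at 41.3, 32.5 and 34.4 CPM in WT 1 to 3 and at 40.1, 49.5 and 53.1 CPM in Het 1 to 3 (log2 fold change 0.40, edgeR adjusted p = 0.732). Of 18 pan-neuronal genes, 6 were positive (median -0.06, and 0.02 without Het replicate 1), and *Nefl*, the neurofilament light chain, was at 152, 154 and 158 CPM in WT and at 129, 141 and 104 CPM in *Chaserr*+/- (-0.31). The groups of *Sox2* overlapped and those of *Nefl* did not. In the motor neuron list, *Mnx1* (-1.57), *Chat* (-0.65) and *Lhx3* (-0.54) were lower with no overlap, but each was under 2 CPM in every library. *Isl1*, which also marks sensory neurons and heart progenitors, was higher at 34.9, 35.5 and 33.2 CPM against 28.8, 30.9 and 30.9 CPM (0.19). Excitatory (median 0.12) and inhibitory (0.03) neuron genes had no member at an unadjusted p under 0.05.

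Few skeletal muscle, heart muscle, bone, tendon and cartilage genes differed between the genotypes. Skeletal muscle (18 genes, median -0.04), heart muscle (13, -0.17), bone (8, -0.01) and tendon (5, -0.04) had no member at an unadjusted p under 0.05, and cartilage (11, -0.05) had 1, the collagen gene *Col9a3* (-0.24). Of 21 connective tissue matrix genes (median -0.07), 5 had a positive log2 fold change and none was called. At that threshold 3 were lower, where 3.25% of all genes were. With no overlap between the groups, 5 were lower (7.07% of all genes) and 1 higher (5.74%). *Col3a1*, a fibrillar collagen, was at 2763, 2693 and 2638 CPM in WT 1 to 3 and at 2348, 2401 and 2542 CPM in Het 1 to 3 (log2 fold change -0.15). In the epidermis list, all 12 genes had a negative log2 fold change (median -0.12, and -0.03 without Het replicate 1). *Krt5*, a basal keratin, was lowest in Het 1 at 107 CPM, with the others at 127 to 155 CPM. The list summed to 321 CPM in Het 1 and to 454 CPM in Het 3, above the 424 to 445 CPM of WT. At that threshold 1 member was lower, *Sfn* (-0.29), with no overlap between the groups. Kidney (-0.13), general epithelium (-0.15) and endothelium (-0.01) had no member at that threshold.

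Growth and housekeeping pathways also differed little. The 14 genes of the growth axis, among them *Igf2* (log2 fold change 0.03), *Igf1* (0.17) and *Insr* (0.10), had a median of -0.03 and none had an unadjusted p under 0.05. Of 16 imprinted genes, *Ndn*, which encodes the growth suppressor necdin, was higher at 237, 276 and 261 CPM against 219, 187 and 217 CPM (0.31), *Plagl1* was higher with overlap (0.40) and *Cdkn1c*, a cyclin-dependent kinase inhibitor, was lower (-0.15). S phase (median 0.03) and mitosis (0.06) genes had no member at that threshold, and their sums were highest in Het 1, at 2640 and 3334 CPM. The 82 cytosolic ribosomal protein genes (median -0.04) had *Rpl13a* alone at that threshold, and 80 nuclear genes of oxidative phosphorylation (median -0.02) had 1 in each direction. Interferon-stimulated genes (median -0.12), p53 targets (0.01), cholesterol synthesis (-0.07), and heat shock and unfolded protein response genes (0.08) had at most 2 such members. *Hspa5*, the chaperone BiP, was higher at 839, 775 and 820 CPM against 769, 710 and 713 CPM (0.15).

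The lists of CHD remodellers (median 0.015) and of other remodellers and H3.3 genes (median 0.013) had medians near that of all genes tested. Of 18 other remodellers and H3.3 genes, *Arid2*, a subunit of PBAF, was at 153, 155 and 151 CPM in WT 1 to 3 and at 167, 164 and 176 CPM in Het 1 to 3 (log2 fold change 0.14), *H3f3b*, which encodes histone H3.3, had a log2 fold change of 0.15, and *Srcap*, the remodeller that deposits H2A.Z, of -0.13. None of the 3 overlapped between the groups, where 5.74% of all genes were higher and 7.07% lower in this way, and none was called. Of 16 SR proteins and splicing kinases, *Tra2b* (0.17) and *Srsf10* (0.22) were higher at an unadjusted p under 0.05, where 3.09% of all genes were.

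The differences between the genotypes followed the GC content of the genes. Over the 15162 genes with a known sequence, the log2 fold change and GC content of exons had a Spearman correlation of -0.422 and a Pearson correlation of -0.222, a description over genes that share the same 6 libraries. With the genes sorted into 10 bins of equal size by GC content, the median log2 fold change was 0.12 in the lowest bin (median 40.1%) and -0.08 in the highest (median 59.8%), with a steady decrease between. Per library, the slope of the deviation from the mean of the 6 libraries, per 10 points of GC content, was 0.101, -0.0198 and 0.0559 in WT 1 to 3 and -0.0162, -0.000119 and -0.121 in Het 1 to 3. WT 1 and Het 3 were at the ends, and WT 2 lay below both Het 1 and Het 2. The means were 0.0457 ± 0.0610 (SD, n = 3) and -0.0457 ± 0.0656 (SD, n = 3), which the exact two-sided permutation test did not separate (p = 0.3, smallest possible 0.1). The GC slope of Het 1, the library with the high liver and globin share, was among the 3 smallest in size.

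**Figure D5:**
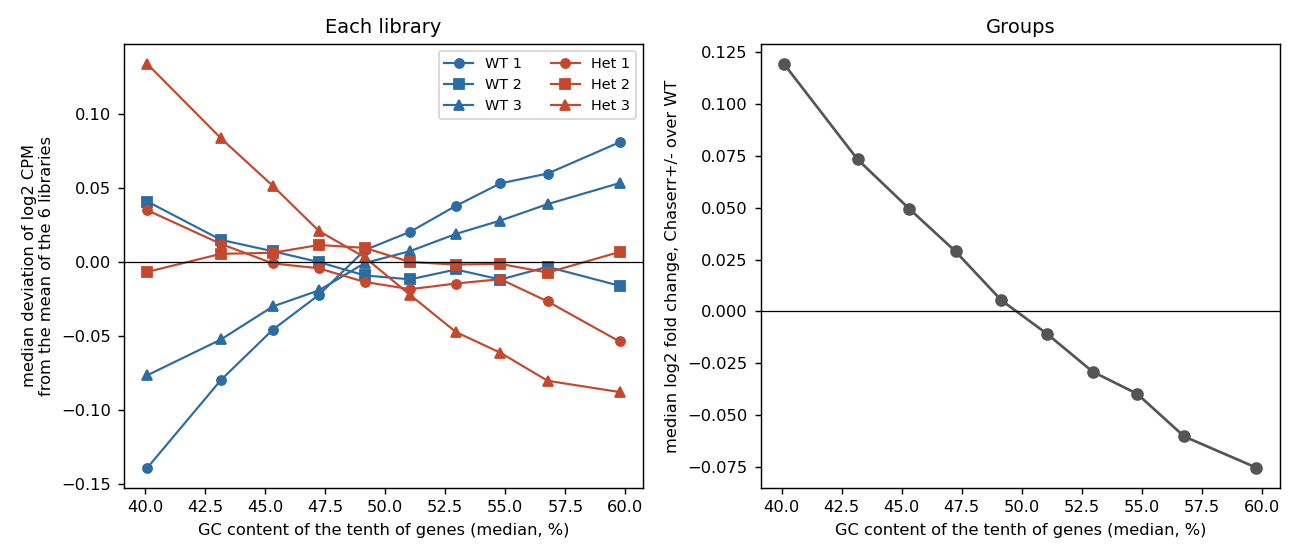
Left, median deviation of log2 CPM from the mean of the 6 libraries in each of 10 bins of genes by GC content (x axis, median GC content in percent), 1 line per library, with WT in blue and *Chaserr*+/- in red. Right, median log2 fold change of *Chaserr*+/- over WT in the same bins, which decreases from 0.12 to -0.08. The lines of WT 1 and Het 3 run in opposite directions.

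Genes that start close behind an abundant neighbour in the same orientation had a slightly lower median log2 fold change than distant ones. For 412 genes, an upstream gene in the same orientation with a WT FPKM of at least 10 ended within 2 kb of the 5′ end. These genes had a median log2 fold change of -0.05, against 0.01 for 11810 genes more than 10 kb away. The median was -0.04 for 382 genes within 2 kb of an upstream gene with an FPKM under 10, of which 4.71% were lower and 2.09% higher at an unadjusted p under 0.05. For 2276 genes at 2 to 10 kb it was -0.02. A lower median was thus not particular to genes with an abundant neighbour. The median GC content of these 2 groups was 54.1% and 52.8%. *Chd2* itself was not among the 412, because *Chaserr* had no position in the gene annotation used. The upstream gene assigned to *Chd2* was *Gm4971*, 143786 bases away, so *Chd2* was counted with the distant genes. Of the 412, 42 were lower (10.2%) and 5 higher (1.21%) at an unadjusted p under 0.05. Among the distant genes, 2.66% were lower and 3.41% higher, and of all genes 3.25% and 3.09%. None of the 412 was called by edgeR, while DESeq2 called *Cpt1c*, *Osgep*, *Mmp14* and *Supt16*, beside 0.115% of all genes it tested. The median deviation of the 412 genes was 0.0393, 0.00307 and 0.0413 in WT 1 to 3 and 0.000942, -0.0123 and -0.0841 in Het 1 to 3. The Het libraries were thus all below the WT libraries, with Het 3 lowest, although the lowest WT and highest Het libraries were close. *Cpt1c*, *Osgep* and *Mmp14* were the lower genes of this group with the lowest p, and *Supt16*, *Kcnj14* (an inward rectifier potassium channel, log2 fold change 0.53) and *Bmi1* (a Polycomb protein, 0.25) the higher ones. The group was also richer in GC, with a median of 55.4% against 49.2%. With the trends of GC content and length removed, its median was -0.00165 against 0.00894. In that fit 17 genes were lower (4.13%) and 7 higher (1.70%), where 2.44% of all genes were lower and 2.24% higher.

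The same contrast at E9.5 was tested against that at E13.5 in a single fit of 12 embryo libraries. Only 2 of 16173 genes (0.0124%) had a genotype effect that differed between the stages. *AI506816* was one, with a log2 fold change of 0.12 at E9.5 and a difference of 4.54 (SE 0.192, edgeR adjusted p = 8.05e-07). At E9.5 it was at 4.09 to 4.23 CPM in WT and at 4.08 to 5.42 CPM in *Chaserr*+/-, so that the E13.5 WT libraries lay below and the E13.5 *Chaserr*+/- libraries far above both E9.5 groups. Its weighted transcript length at E9.5 was 466 to 520 bases in all 6 libraries. For *Chd2*, the log2 fold change was 0.66 at E9.5, and the difference between the stages was 0.11 (SE 0.0776, edgeR adjusted p = 0.963). The difference for *Entpd4* was -0.64 (SE 0.202, edgeR adjusted p = 0.963) and for *Chaserr* 0.24 (SE 0.249, edgeR adjusted p = 0.963).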

How the data were processed

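The E13.5 embryo libraries (3 WT, 3 *Chaserr*+/-) and, for the comparison of stages, 6 E9.5 libraries were analysed. The authors quantified strand-specific paired-end reads with RSEM (version not given in the sources used here) on a RefSeq annotation in which the last exon of *Chaserr* was edited, and deposited per gene row an expected count, a TPM, an FPKM and a weighted transcript length, without normalization between libraries. The mm9 and mm10 builds are both named in the submitters' processing notes. Each table held 24990 rows, of which 374 joined several genes, 1132 were named by a transcript accession and 85.5% were matched to GENCODE vM1 positions (mm9). RSEM divides reads between near-identical copies, so the values of such rows are uncertain.

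After rounding, expected counts went into edgeR 4.0.16 under R 4.3.3, with low rows removed by filterByExpr, TMM scaling, the quasi-likelihood test and Benjamini-Hochberg adjustment. DESeq2 1.42.0 was an alternative. The fit used genotype alone. FPKM served as a minimum level of 1 for genes picked by rule and of 10 for upstream neighbours, and log2 CPM used a prior count of 2. The biological coefficient of variation was 0.164. Genes were named by rule: the study's genes, called genes, the lowest p in each direction, up to 2 per list and direction, the rows that differed most in Het 1, neighbours of *Chd2* and close tandem genes. Further genes (*Pop4*, *Aldh1a2*, *Col16a1*, other members of the lens, smooth muscle, Hox, BMP, motor neuron, erythroid and globin lists, *Igf2*, *Marveld2* and the neighbours of *AI506816*) were chosen after their values were seen. The members and gene lists were chosen with earlier results of these data known. The procedure was tested on simulated data. The lists were described by counts and medians, with no test over a list.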

Additional observations from a re-analysis of the deposited data

Results flagged for a closer look

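The genotype effect differed between the stages for 2 genes by the test of the interaction of genotype and stage. For *AI506816* the log2 fold change at E13.5 exceeded that at E9.5 by 4.54 (edgeR adjusted p = 8.05e-07), with 776, 774 and 712 counts in the E13.5 *Chaserr*+/- libraries, 22, 31 and 29 in E13.5 WT and 81 to 128 in the 6 E9.5 libraries. This call held in all 9 fits of that test. For Gm5512_NR_002891*, a copy of a transcribed pseudogene, the difference was -8.36 (edgeR adjusted p = 0.0237). It had 0 counts in each E9.5 WT library and 30, 35 and 29 in E9.5 *Chaserr*+/-, and 28, 39 and 50 in E13.5 WT against 28, 41 and 44 in E13.5 *Chaserr*+/-. Leaving out WT replicate 2 or 3 or Het replicate 2 or 3 ended this call (adjusted p of up to 0.115). Groups of 3 libraries are too small for a test of outlying samples, so Het 1 is described by its values alone.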

How the results depend on the processing

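The count of 5 calls (2 higher, 3 lower) was within 1.5 times of itself with DESeq2 size factors or total counts only, with other filters on low counts, after removing the trends of GC content and length, and without globins and erythroid genes. DESeq2 called 23 (5 higher, 18 lower), and the fit with E9.5 embryos added called 2, none lower. Leaving out 1 library gave between 1 and 12 calls, 1 to 3 higher and 0 to 9 lower, with 1 call (and 329 genes at an unadjusted p under 0.05) without WT replicate 3 and 12 without WT replicate 1. With the replicate block, alone or with the GC and length correction, 1 gene was called and it was higher, with 0 lower (435 and 368 genes at an unadjusted p under 0.05). *Chd2* then had a log2 fold change of 0.78 with the block (edgeR adjusted p = 0.129) and 0.75 with both (0.0702). Its log2 fold change over all 20 settings lay between 0.75 and 0.82 (0.76 to 0.82 when 1 library was left out), and the call was lost with both block fits and without WT replicate 3, where the value was 0.77 (adjusted p = 0.0536). Whether libraries with the same number share more than that number is not given (correlations of their deviations -0.187, -0.286 and 0.354), so it is not known whether the block is warranted. The *Chd2* call was lost with the block although its log2 fold change was 0.78 with and without it. *AI506816* was called in all 20 settings.

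Of the alternatives added after seeing the data, leaving out Het replicate 1 and WT replicate 2 gave 8 calls (3 higher, 5 lower), the hepatocyte level as a covariate 7 (5 lower), and *Xist* as a covariate 3 (1 lower). The GC slope difference of -0.0914 became 0.00832 and the close tandem difference of -0.0585 became -0.0106 with the GC and length correction, which removes that trend by construction. Leaving out 1 library, the GC slope difference ran from -0.125 to -0.0579, the close tandem difference from -0.0906 to -0.0348, with the weakest of both without Het replicate 3, and the top-row share difference from -0.124 to 1.19. The genes that differed between stages numbered 1 with at least 10 counts in every library, 2 with DESeq2 and 1 to 3 when 1 library was left out. Among the other genes named by rule, no call changed sign in any setting. The cause of these shifts was not tested, except where the construction gives it. With 3 libraries a group, an exact permutation test cannot go below 0.1, and genes under about 1 CPM rest on few counts.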

Other observations

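The weighted transcript length in the authors' files gives a readout beside the counts. Of 4642 rows with at least 20 counts in every library and a length that varied, 222 were longer and 216 shorter in all *Chaserr*+/- libraries than in any WT library (9.44% in all). *AI506816* differed most (log2 ratio of length 2.05), followed by *Psmb5|Mir686* (-0.31). *Igf2*, the main fetal growth factor, had a length of 3208, 3269 and 3115 bases in WT 1 to 3 and of 3404, 3393 and 3470 bases in Het 1 to 3, with no overlap and hardly any difference in its summed count (log2 fold change 0.03). *Marveld2*, which encodes tricellulin, was at 3061 bases in each WT library and at 2905, 2933 and 2795 bases in Het 1 to 3. *Chd2* and *Chaserr* had a single transcript each, so their length was the same in all libraries. *Igf2* and *Marveld2* were chosen after their values were seen, other rows had larger differences, and no difference in length was tested.

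Genes with an unadjusted p under 0.05 were unevenly spread over the chromosomes. Chromosome 14 held 53 of 524 tested genes (10.1%), chromosome 16 held 41 of 478 (8.58%) and chromosome 7, which carries *Chaserr*, 82 of 1162 (7.06%), beside 6.34% of all genes. On chromosome 7, 64 of the 82 were lower in *Chaserr*+/-, on chromosome 11, 57 of 79, and over all genes 519 of 1011. These counts were not corrected for the GC content of the genes, and the cause of the spread was not tested. Among windows of 10 Mb with at least 50 genes tested, the highest share was 14.4%, from 30 Mb on chromosome 5. The windows that start at 50 and 60 Mb on chromosome 14 held 13.3% and 12.7%, among them *Osgep*, *Supt16*, *Mmp14* and *Entpd4*.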
